A study of Mus musculus with 10 samples.

Results

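The genes described here are 32 genes of glycolysis and of the response to low oxygen. They were taken as a named list, which was chosen with earlier results of these data known. The list holds glucose and lactate carriers, the glycolytic enzymes and their regulators, and genes known to be induced in hypoxic cells. Each gene was read from 1 probe set, the one with a single gene symbol and the highest mean over the arrays. A probe set was found in this way for 30 of the 32, out of 18193 genes of the array, and Gpi1 and Eno1 were not analysed here.

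Glycolysis splits glucose into pyruvate, and lactate dehydrogenase turns pyruvate into lactate, which leaves the cell through monocarboxylate carriers. When oxygen is low, prolyl hydroxylases no longer mark the factor HIF-1α for destruction, and HIF with its partner ARNT binds a short core motif near genes of glucose use, vessel growth and mitochondrial turnover. Colon tumours are known for high glycolysis, and Wnt signalling through β-catenin is their usual driver, with Bcl9 and Bcl9l as co-factors that tie β-catenin to Pygo proteins.

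RNA of laser-dissected colon tumours was measured on Affymetrix mouse expression arrays, 1 for each of 5 KO and 5 WT tumours. KO mice are labelled vil-Cre-Bcl9-/-/Bcl9l-/- and WT mice wildtype, both of a 129SvEv/C57BL/6/DBA/2 mixed background. The promoter of villin, from which vil-Cre takes its name, is active in the intestinal epithelium, so other cells of the dissected tissue are not its target. All mice were 6 to 8 weeks old when they received a single dose of dimethylhydrazine (44 mg/kg), followed by 7 days of dextran sulfate sodium (2%) in the water, so every tumour arose after carcinogen and colitis. KO tumours 2 and 6 came from mouse 02, KO tumours 9 and 11 from mouse 04 and KO tumour 7 from mouse 99. WT tumours 1, 3, 12 and 13 came from mouse 72 and WT tumour 8 from mouse 82, so the comparison rests on 3 KO and 2 WT mice. The extraction text speaks of pooling samples within a mouse, although several tumours of a mouse have an array of their own, and they are treated as listed. The samples also carry a unique number, from 191 to 229 for KO tumour 7 and WT tumours 3, 8, 12 and 13, and from 254 to 258 for the other 5. What this number stands for is not stated.

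The epithelial markers Epcam, Krt8, Krt18 and Krt19 were high in every tumour, Epcam at 13.59 ± 0.07 in KO and 13.58 ± 0.09 in WT. Neither of the deleted genes passed the test: Bcl9 lay at 8.49 ± 0.20 in KO and 8.28 ± 0.22 in WT, and Bcl9l at 8.40 ± 0.22 and 8.27 ± 0.15 (log2 signal, SD, n = 5 tumours each). Whether these probe sets lie in the deleted stretches is not stated, so they check nothing about the genotype. WT tumour 1 stood apart on the array as a whole, with a mean correlation of 0.964 with the other arrays against 0.970 to 0.976 for the rest. Among lists of cell type markers, the lymphocyte list was higher in every KO tumour, with a mean of 6.82 to 7.38 against 5.57 to 6.17 in WT, and 7 of its 10 tested genes rose. The epithelial, fibroblast, endothelial, smooth muscle and cycling lists had no member past the threshold, and their means overlapped between the groups. Within the epithelial list, however, Vil1 differed by 0.69 ± 0.20 without overlap and Car1 by −3.26 ± 0.99 (adjusted p = 0.0716 and 0.0773 in limma). Of 11 tested myeloid genes, 1 rose. The part of lymphocytes in the values that follow was not tested.

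None of the 30 genes passed the test for a difference between KO and WT tumours. In limma with the mouse as a random block and Benjamini-Hochberg adjustment over 12250 genes, 0 of the 30 had an adjusted p under 0.05, whereas 7.09% of all genes tested did (509 higher and 359 lower). At an unadjusted p under 0.05 there were 5 of the 30, with Hk2 and Pfkfb4 higher and Aldoc, Eno2 and P4ha2 lower in KO, against 22.4% of all genes. KO and WT tumours failed to overlap for 1 gene, Pfkfb4, against 9.12% of all genes. The difference was above 0 for 12 genes and below 0 for 18. Of the 30 genes, 17 had several probe sets, and for 5 these differed in sign. None of the 61 probe sets of these genes had an adjusted p under 0.05 in limma over all probe sets with a single symbol. The median difference was −0.08 log2, against 0.03 over all genes tested. In bulk tissue of this kind, fewer cells of a type and less RNA per cell cannot be told apart.

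A lack of calls is not a lack of difference, and the intervals show how much remains possible. The 95% interval lay within a 2-fold change either way for 17 of the 30 genes, against 80.2% of all genes tested. The other 13 had intervals that reached 2-fold. These genes varied more between tumours of a group than most: the median pooled within-group SD was 0.44 log2 against 0.24 over all genes, 22 of the 30 lay above that all-gene median and 16 above its 80th percentile. For 22 genes the difference between KO and WT was smaller than the pooled SD.

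**Figure D1:**
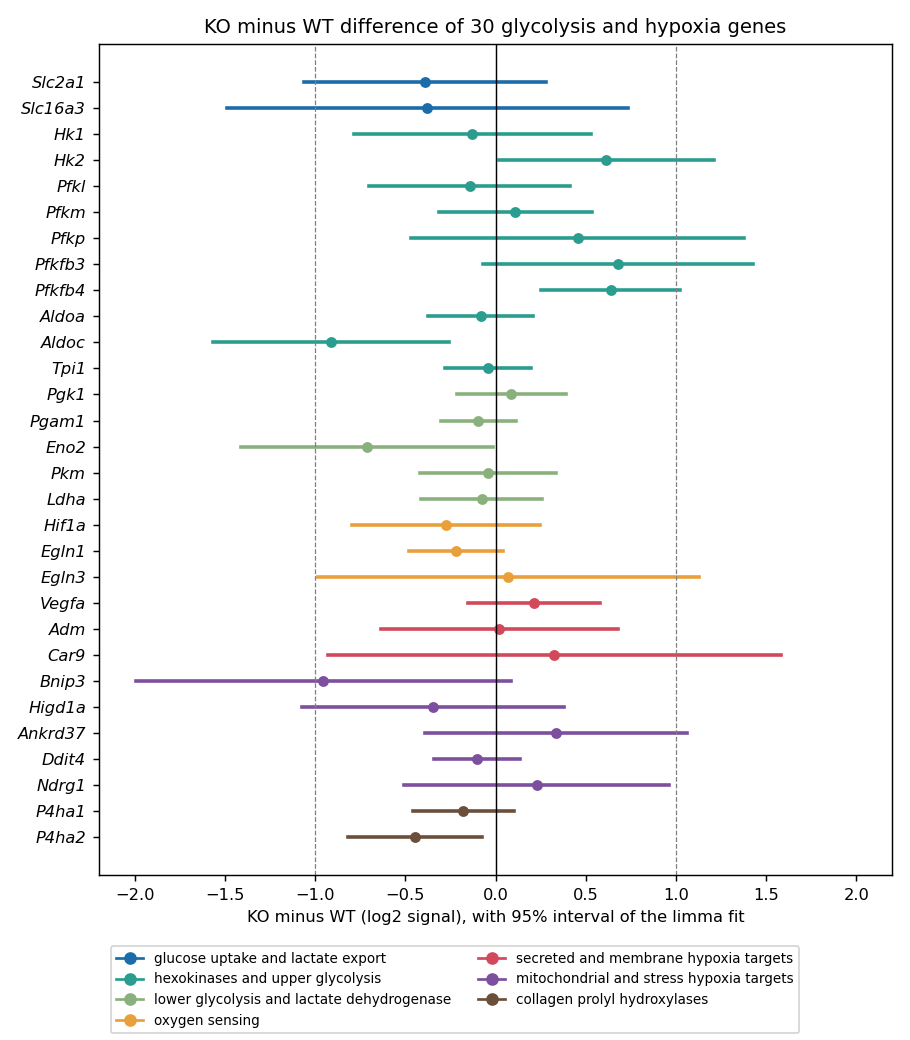
KO minus WT difference in log2 signal on the horizontal axis for 30 genes in order of role, with the 95% interval of the limma fit; dashed lines mark a 2-fold change. The intervals of the core enzymes Tpi1, Pgk1, Pgam1 and Ldha are narrow around 0, whereas those of Slc16a3, Egln3, Car9 and Bnip3 are wide.

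The promoter sequences show how far the known HIF motif is shared by these genes. The core ACGTG was searched on both strands, so also as CACGT, in windows from 250 bases before to 50 after each start, from RefSeq (GRCm38.p6). The palindrome CACGTG counts on both strands and is also the E-box bound by other factors. Of the 30 genes, 29 had a window (Ndrg1 did not), with 40 windows in all. The core occurred in 26 of the 40 windows, or 65.0%, and in 19.6% of 32841 windows of all genes; the E-box form occurred in 12.5% and 7.15%. Windows of these genes had a mean GC content of 62.3% against 53.8% over all windows, and the part of base composition in the motif's share was not examined. Printed below with the motif in capitals are 3 genes whose tumour values, given further on, moved together within the KO group (Slc16a3, Egln3 and Hk2) and Pfkfb4, the gene without overlap, which has no match in this window.
Slc16a3: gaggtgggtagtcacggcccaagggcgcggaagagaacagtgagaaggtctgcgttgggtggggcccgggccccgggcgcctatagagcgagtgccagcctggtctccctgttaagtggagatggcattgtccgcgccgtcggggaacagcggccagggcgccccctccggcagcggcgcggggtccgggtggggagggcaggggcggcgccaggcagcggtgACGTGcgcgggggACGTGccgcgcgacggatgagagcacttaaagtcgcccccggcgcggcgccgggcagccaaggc
Egln3: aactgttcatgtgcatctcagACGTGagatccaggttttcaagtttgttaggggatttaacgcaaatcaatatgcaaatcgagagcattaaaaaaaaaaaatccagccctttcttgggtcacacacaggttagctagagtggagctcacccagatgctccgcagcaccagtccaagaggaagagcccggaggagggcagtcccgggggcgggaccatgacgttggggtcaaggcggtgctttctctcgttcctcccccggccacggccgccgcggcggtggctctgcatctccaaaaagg
Hk2: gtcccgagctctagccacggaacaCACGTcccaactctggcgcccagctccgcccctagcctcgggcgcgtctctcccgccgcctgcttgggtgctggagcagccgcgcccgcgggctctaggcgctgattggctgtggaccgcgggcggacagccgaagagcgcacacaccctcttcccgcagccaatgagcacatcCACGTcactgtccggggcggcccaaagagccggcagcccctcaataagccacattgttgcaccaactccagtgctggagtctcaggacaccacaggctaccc
Pfkfb4: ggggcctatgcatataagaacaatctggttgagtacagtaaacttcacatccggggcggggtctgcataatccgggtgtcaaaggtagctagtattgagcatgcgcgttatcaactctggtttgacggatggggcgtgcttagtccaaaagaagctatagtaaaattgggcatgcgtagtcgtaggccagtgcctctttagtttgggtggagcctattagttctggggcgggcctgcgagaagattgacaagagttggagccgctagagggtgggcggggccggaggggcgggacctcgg
They lie at chr11:120948817-120949116 (plus strand), chr12:54203825-54204124 (minus), chr6:82774405-82774704 (minus) and chr9:108991652-108991951 (plus), each written 5′ to 3′ along the gene. The Slc16a3 window holds 2 copies close together upstream of the start, the Egln3 window 1 and the Hk2 window 2. A match is a description of the letters and says nothing of binding in these tumours.

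The carriers at either end of the pathway did not pass the test. Slc2a1 encodes GLUT1, the main basal glucose carrier. Its log2 signal was 11.15 and 10.73 in KO tumours 2 and 6, 11.49 and 11.44 in KO tumours 9 and 11, and 11.78 in KO tumour 7. In WT it was 10.71 in tumour 1 and 12.05, 12.25, 11.88 and 11.60 in tumours 3, 8, 12 and 13. WT tumour 1 was as low as the lowest KO tumour, and the groups overlapped. The difference was −0.39 ± 0.30 log2 (SE, 95% interval −1.06 to 0.28, adjusted p = 0.496), and it was −0.16 among tumours with the lower unique numbers and 0.50 among those with the upper. With the number range as a covariate it became 0.15.

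Slc16a3 encodes MCT4, the lactate exporter of glycolytic cells. Its signal was 6.79 and 6.69 in KO tumours 2 and 6 of mouse 02, and 8.45, 8.71 and 8.69 in KO tumours 9, 11 and 7. In WT it was 7.12 in tumour 1 and 8.65, 8.61, 8.74 and 8.09 in tumours 3, 8, 12 and 13. Both groups thus held tumours about as high as each other, and the low values belonged to mouse 02 and to WT tumour 1. The difference over all tumours was −0.38 ± 0.50 (adjusted p = 0.71), but it was 0.17 among the lower numbers, 0.54 among the upper and 0.37 without mouse 02. Each within-range value rests on a single tumour of one genotype, KO tumour 7 in the lower range and WT tumour 1 in the upper.

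Hexokinases trap glucose in the cell, and the isoform Hk2 is the one known to be induced in tumours. Hk2 stood at 10.63 and 10.57 in KO tumours 2 and 6, and at 11.54, 11.48 and 11.82 in KO tumours 9, 11 and 7. In WT tumour 1 it was 10.10, and in WT tumours 3, 8, 12 and 13 it was 10.73, 10.71, 10.88 and 10.57. The 3 KO tumours of mice 04 and 99 lay above every WT tumour, whereas those of mouse 02 lay among them. The difference was 0.61 ± 0.27, or 1.53-fold (95% interval 0.02 to 1.21, adjusted p = 0.208 in limma), and it was 1.10 and 0.96 within the number ranges. It passed with the number range as a covariate (1.03, adjusted p = 0.0441) and without mouse 02 (1.02, adjusted p = 0.0221). Hk1, the isoform of most tissues, differed by −0.13 ± 0.30.

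Phosphofructokinase is the committed step, and Pfkfb3 and Pfkfb4 encode the bifunctional enzymes that make and break its activator, fructose 2,6-bisphosphate. Pfkfb4 came nearest to the threshold of the 30 genes. Its signal was 6.99 and 6.59 in KO tumours 2 and 6, 7.12 and 7.37 in KO tumours 9 and 11, and 6.53 in KO tumour 7. In WT tumours 1, 3, 8, 12 and 13 it was 6.05, 6.38, 6.48, 6.23 and 6.20. Every KO tumour was above every WT tumour, with KO tumour 7 and WT tumour 8 nearest to each other. The difference was 0.64 ± 0.17, or 1.56-fold (95% interval 0.25 to 1.03, adjusted p = 0.0531). It passed without the mouse block (adjusted p = 0.0367), with probe sets averaged per gene (0.0471) and without KO tumour 7 (0.0274), and the adjusted p ranged from 0.0274 to 0.623 over the alternatives.

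For Pfkfb3 the KO tumours of mouse 04 were the highest, at 9.17 and 9.37, followed by 8.54 in KO tumour 7 and 7.81 and 7.68 in those of mouse 02. WT tumours 1, 3, 8, 12 and 13 were at 8.12, 7.30, 7.77, 8.06 and 7.94. The mouse 02 tumours sat among the WT tumours and the other 3 above them. The difference was 0.68 ± 0.34 (95% interval −0.07 to 1.43, adjusted p = 0.270), and without mouse 02 it was 1.18 (adjusted p = 0.0333). The other Pfkfb3 probe set differed by 0.36 ± 0.22. The phosphofructokinase subunits were flatter: Pfkl differed by −0.14 ± 0.25 and Pfkm by 0.11 ± 0.19. Pfkp differed by 0.46 ± 0.42, with 8.66 in WT tumour 1 and 9.89 to 11.16 in all other tumours.

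Aldolase C, a minor aldolase isoform known best from brain, had the largest difference of the glycolytic genes among the 30. Aldoc was at 6.68 and 7.19 in KO tumours 2 and 6, 7.84 and 7.65 in KO tumours 9 and 11, and 7.29 in KO tumour 7. In WT tumours 1, 3, 8, 12 and 13 it was 8.52, 8.39, 8.84, 7.89 and 7.46. Only WT tumour 13 fell within the KO values. The difference was −0.91 ± 0.30, or 1.88-fold lower (95% interval −1.57 to −0.26, adjusted p = 0.0972), and it was −0.86 and −1.18 within the number ranges. It passed with the 3′ to 5′ difference of the control probe sets as a covariate (−1.13, adjusted p = 0.0380) and without WT tumour 13 (−1.09, adjusted p = 0.0441). The other Aldoc probe set, at 5.21 in KO and 5.59 in WT, differed by only −0.39 ± 0.22.

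The core enzymes that every cell uses differed little between KO and WT tumours. For Aldoa, Tpi1, Pgk1, Pgam1, Pkm and Ldha, 6 genes that carry glycolysis from fructose bisphosphate to lactate, no difference exceeded 0.10 log2 and every 95% interval lay between −0.42 and 0.39. Their values over the 10 tumours ran from 11.53 to 13.04 and their pooled SD from 0.10 to 0.27. Ldha, which makes lactate, differed by −0.08 ± 0.15 (95% interval −0.41 to 0.26), and Tpi1, triosephosphate isomerase, by −0.04 ± 0.11 (−0.28 to 0.20). A change of 2-fold lies outside these intervals. Further probe sets differed by 0.23 and 0.23 for Pgk1, by −0.01 and −0.12 for Tpi1 and by −0.07 to −0.09 for Aldoa. Gapdh, from the control 3′ probe set, was at 13.23 to 13.36 in KO and 13.29 to 13.49 in WT.

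Eno2, the enolase isoform of neurons and neuroendocrine cells, was the lower-glycolysis gene with the smallest p. Its signal was 7.10 in KO tumour 2, 5.63 in KO tumour 6, and 5.73, 5.97 and 5.68 in KO tumours 9, 11 and 7. In WT it was 5.99 in tumour 3 and 6.82, 6.96, 6.93 and 6.91 in tumours 1, 8, 12 and 13. One tumour of each group thus sat with the other group. The difference was −0.71 ± 0.32 (adjusted p = 0.214), and −0.98 with an adjusted p of 0.0262 without KO tumour 2. Most of its KO values lie near the lowest level tested, a mean of 5.82 log2, and how far they stand above background was not examined.

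**Figure D2:**
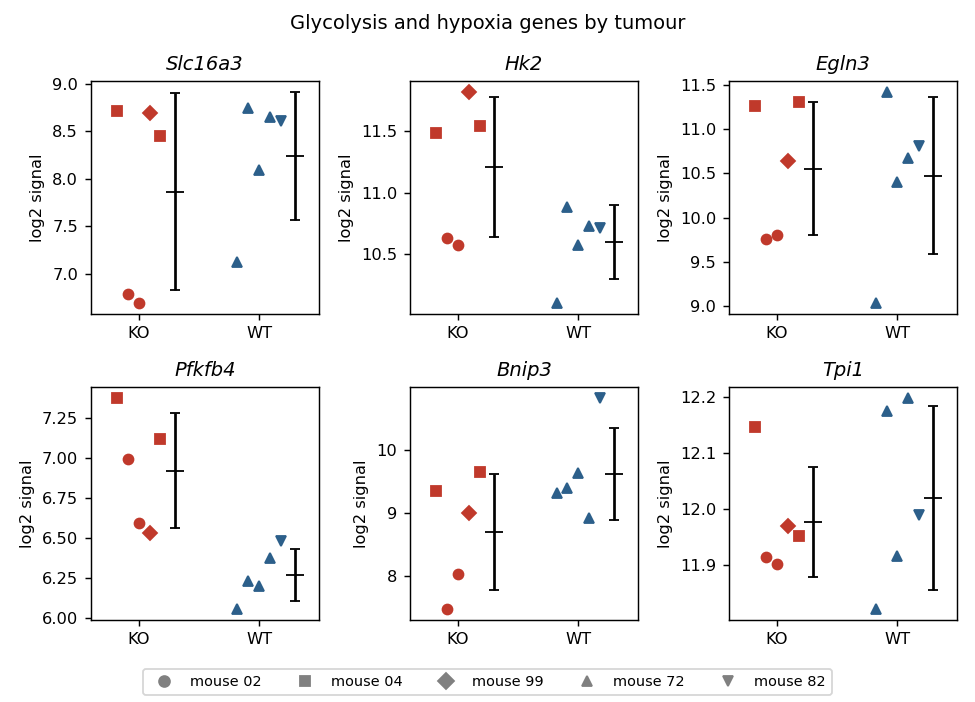
Log2 signal of single genes in each KO and WT tumour, with the symbol giving the mouse and a bar for the mean ± SD of 5 tumours. Pfkfb4 is higher in all KO tumours than in all WT tumours, and the low KO values of Slc16a3 and Hk2 are those of mouse 02.

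Of the oxygen-sensing genes none passed. Hif1a itself, the oxygen-labile subunit, differed by −0.27 ± 0.24 (95% interval −0.79 to 0.25, adjusted p = 0.543). Egln1, the main prolyl hydroxylase of HIF, had the smallest p of this group. It was at 9.62 and 9.69 in KO tumours 2 and 6, 9.69 and 9.42 in KO tumours 9 and 11 and 9.94 in KO tumour 7, and at 9.72, 9.92, 10.08, 9.90 and 9.83 in WT tumours 1, 3, 8, 12 and 13. KO tumour 7 lay among the WT tumours and the other KO tumours below them, at a difference of −0.22 ± 0.12 (adjusted p = 0.307), 0.01 and −0.11 within the number ranges. A second Egln1 probe set differed by −0.37 ± 0.13 (adjusted p = 0.162 in limma over all probe sets with a single symbol).

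Egln3, a prolyl hydroxylase that is itself a HIF target, spread over 2.39 log2 between tumours with almost no difference of the means. It was at 9.76 and 9.80 in KO tumours 2 and 6 but 11.30 and 11.26 in KO tumours 9 and 11 and 10.64 in KO tumour 7. In WT it was 9.04 in tumour 1 and 10.68, 10.81, 11.42 and 10.41 in tumours 3, 8, 12 and 13. The difference was 0.07 ± 0.48 (95% interval −0.99 to 1.13, adjusted p = 0.951), an interval that reaches a 2-fold rise. It took the other sign without mouse 04 (−0.40) and without WT tumour 1 (−0.27).

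Secreted and membrane targets of HIF did not pass either. Vegfa, the vessel growth factor, had the smallest p of these 3 genes. It was at 8.01, 7.31, 7.89, 7.80 and 7.31 in KO tumours 2, 6, 9, 11 and 7 and at 7.34, 7.23, 7.49, 7.57 and 7.59 in WT tumours 1, 3, 8, 12 and 13. The 3 highest values were KO tumours and the other 2 KO tumours lay among the WT tumours (0.21 ± 0.17, adjusted p = 0.495). A second Vegfa probe set, at 7.44 in KO and 7.59 in WT, had the other sign (−0.14 ± 0.14). Car9 encodes the membrane carbonic anhydrase used as a marker of hypoxia. It varied little in KO, from 8.06 to 8.82, and widely in WT, from 6.71 in tumour 1 and 6.86 in tumour 13 to 9.43 in tumour 3. The difference was 0.33 ± 0.57 with a 95% interval from −0.93 to 1.58. Adm, the vasodilator peptide adrenomedullin, differed by 0.02 ± 0.30.

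Among the mitochondrial and stress targets, Bnip3 had the widest range of the 30 genes, 3.35 log2 over the 10 tumours. Bnip3, which drives the removal of mitochondria, was at 7.47 and 8.03 in KO tumours 2 and 6, 9.65 and 9.34 in KO tumours 9 and 11 and 8.99 in KO tumour 7. In WT tumours 1, 3, 8, 12 and 13 it was 9.31, 8.92, 10.82, 9.39 and 9.62. Mouse 02 was below every WT tumour, whereas mice 04 and 99 overlapped with WT. The difference was −0.95 ± 0.47, or 1.94-fold lower (95% interval −1.99 to 0.08, adjusted p = 0.262), and −0.70 and −0.69 within the number ranges. Of the others, Higd1a, a mitochondrial protein that is induced by low oxygen, differed by −0.35 ± 0.33, Ankrd37 by 0.34 ± 0.33 and Ndrg1, a stress and differentiation gene, by 0.23 ± 0.33. Ddit4, an inhibitor of mTOR signalling, differed by −0.10 ± 0.11.

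P4ha1 and P4ha2 encode the catalytic subunits of the collagen prolyl hydroxylases. P4ha2 was at 6.93, 6.44, 6.77, 6.61 and 6.71 in KO tumours 2, 6, 9, 11 and 7 and at 7.42, 6.64, 7.30, 7.01 and 7.30 in WT tumours 1, 3, 8, 12 and 13. WT tumour 3 lay among the KO tumours and the other 4 WT tumours above them all. The difference was −0.45 ± 0.17, or 1.36-fold lower (adjusted p = 0.146), and −0.57 with an adjusted p of 0.0385 without WT tumour 3. P4ha1 differed by −0.18 ± 0.13 (adjusted p = 0.454).

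The variation of these genes ran along single mice and tumours within a genotype. This pattern was seen in the values first and is given as a description. Both tumours of mouse 02 were below the 3 other KO tumours for 15 of the 30 genes, against 11.1% of all genes tested, and above them for 2 (Car9 and Ddit4), against 13.4%. The 15 were Slc2a1, Slc16a3, Hk1, Hk2, Pfkl, Pfkfb3, Aldoa, Aldoc, Tpi1, Pgk1, Pgam1, Ldha, Egln3, Adm and Bnip3. The mean of mouse 02 minus that of mice 04 and 99 was −1.88 log2 for Slc16a3, −1.58 for Bnip3, −1.29 for Egln3, −1.28 for Pfkfb3, −1.02 for Hk2 and −0.90 for Pfkl. For the abundant enzymes Tpi1, Pgk1 and Ldha it was −0.11, −0.20 and −0.27.

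WT tumour 1 was the lowest WT tumour for 21 of the 30 genes, against 20.4% of all genes tested, and the highest for 2 (Pfkfb3 and P4ha2), against 26.2%. For 10 genes both held, mouse 02 low among KO and tumour 1 low among WT: Slc2a1, Slc16a3, Hk1, Hk2, Pfkl, Tpi1, Pgk1, Pgam1, Ldha and Egln3. WT tumour 1, the mouse 02 tumours and KO tumours 9 and 11 carry the unique numbers from 254 to 258. KO tumours 9 and 11 were high for many of these genes. The part of the number range in the pattern was not tested. The mean of the epithelial marker list was 10.66 in WT tumour 1, where the other WT tumours had 11.26 to 12.33. It was 11.31 and 11.45 in KO tumours 2 and 6, and KO tumours 7, 9 and 11 had 11.61 to 11.75. Its genes shared this unevenly. In WT tumour 1 Car1 was 6.91 and Krt20 7.31, where the other WT tumours had at least 9.75 and 8.62. Krt8 (12.70), Krt19 (13.11) and Epcam (13.47) were also lowest there, by less, and Krt18 (13.19) was not. Car1 was 6.22 and 5.32 and Krt20 8.14 and 8.53 in KO tumours 2 and 6, below the 3 other KO tumours. Epcam differed less, at 13.50 and 13.60, where those 3 had 13.54 to 13.66. The fibroblast list was at 9.61 in KO tumour 2 and 9.60 in WT tumour 1, the highest of each group. The lymphocyte list was at 6.82 and 7.17 in KO tumours 2 and 6 and at 7.36 to 7.38 in the 3 other KO tumours. The smooth muscle list was at 8.49 and 8.08 in KO tumours 2 and 6 and at 7.45 to 7.69 in the 3 others. The 3′ to 5′ difference of the control probe sets, a sign of RNA quality, was 1.17 and 0.86 in KO tumours 2 and 6 and 0.92 in WT tumour 1, within a range of 0.71 to 1.17 in KO and 0.78 to 1.14 in WT. The part of these measures in the pattern was not tested.

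**Figure D3:**
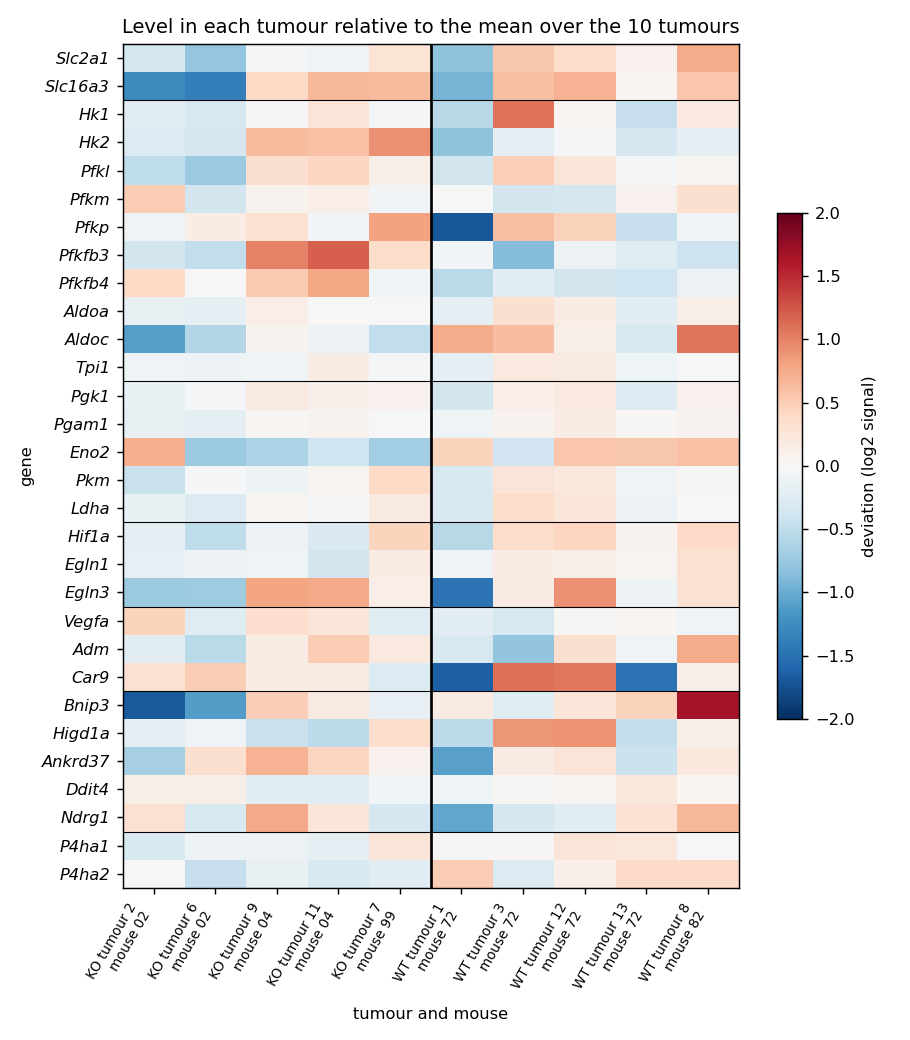
Log2 signal of each of the 30 genes in each of the 10 tumours as the difference from the gene's mean, with genes in order of role and tumours by genotype and mouse. KO tumours 2 and 6 are both below the 3 other KO tumours for 15 genes, and WT tumour 1 is the lowest WT tumour for 21.

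A wider list of 30 further glycolytic and gluconeogenic genes gave no call in the main fit either. Of these, 25 had a probe set and 19 were tested; 0 passed in limma, against 7.09% of all genes, and 6 had an unadjusted p under 0.05, against 22.4% of all genes. Of the 6, 5 were higher and 1 lower. The median difference was 0.22 log2, against 0.03 over all genes tested. Ldhb, the lactate dehydrogenase subunit that favours lactate use, had the largest difference, −1.79 ± 0.61 (8.53 ± 1.29 in KO and 10.26 ± 0.77 in WT, adjusted p = 0.111). Its KO values were 7.51 to 8.79 except for 10.66 in KO tumour 2, without which the difference was −2.30 (adjusted p = 0.0117). The muscle glucose carrier gene Slc2a4 differed by 0.41 ± 0.13 (adjusted p = 0.0862), mitochondrial Pck2, which makes phosphoenolpyruvate, by 0.41 ± 0.16 (0.145) and Adpgk, an ADP-dependent glucokinase, by 0.45 ± 0.18 (0.161). With probe sets averaged per gene, Adpgk differed by 0.75 and passed (adjusted p = 0.00756 in limma).

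The remaining genes of the hypoxia pathway did include changes, most of them lower in KO. Of 36 further genes listed, 33 had a probe set and 31 were tested; 6 passed, 5 lower and 1 higher, which is 19.4% of the 31 against 7.09% of all genes, and the median difference was −0.06 log2. The list was chosen with earlier results of these data known, so its share beside that of all genes is a description only. The 6 were Arnt2, Plod1, Plod2, Lox, Tfrc and Cited2. Plod1, Plod2 and Lox modify or cross-link collagen, Tfrc takes up iron, Arnt2 is a partner of HIF and Cited2 competes with HIF for its coactivator. Hif3a, Arnt, Epas1 (HIF-2α), Vhl and the kinase gene Pdk1 did not pass, at −0.06, 0.11, −0.26, −0.20 and −0.03 log2.

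Lox, the lysyl oxidase gene, had the largest fall of the 6. It was at 6.87 and 6.30 in KO tumours 2 and 6, 5.48 and 5.97 in KO tumours 9 and 11 and 6.29 in KO tumour 7, and at 7.69, 6.59, 8.18, 8.20 and 8.08 in WT tumours 1, 3, 8, 12 and 13. Only WT tumour 3 reached into the KO values, at a difference of −1.58 ± 0.36, or 2.99-fold (adjusted p = 0.0256). The call was lost in 9 alternatives (adjusted p up to 0.0984 in limma), among them the number range as a covariate (adjusted p = 0.0851). Leaving out KO tumour 11 or 6 or WT tumour 1, 8 or 13 also lost it (0.0508 to 0.0659). Lox was also not called with probe sets averaged per gene or with the filter at the 60th percentile. An alternative in which a gene fell under the filter is not counted as a lost call, here and below.

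Arnt2 was at 5.08 to 6.05 in KO and 6.34 to 7.55 in WT tumours, without overlap, and fell by 1.35 log2 (SE 0.26, adjusted p = 0.0125), a fold that is not exact because its KO mean of 5.44 lies under the level filter. It did not pass without mouse 02 (adjusted p = 0.0646 in limma). Without mouse 72, which leaves WT tumour 8 as the only WT tumour, the difference was −1.45. Like Lox, Arnt2 was also not called with probe sets averaged per gene or with the filter at the 60th percentile. Plod1 also had no overlap, at 5.98 to 6.73 in KO and 6.91 to 7.84 in WT, and fell by 0.93 (SE 0.20, 1.91-fold, adjusted p = 0.0197). It did not pass over mouse means (0.0568), without mouse 04 (0.0738) or without mouse 72 (0.187). The fibroblast marker list, whose genes include those of the collagens that these enzymes act on, was at 8.64 to 9.61 in KO and 8.44 to 9.60 in WT, with 0 of its 8 tested genes past the threshold. The differences of these 8 genes were nevertheless below 0 for all but 1 (Thy1), with a median of −0.34 log2. Among them were Dcn at −0.74 ± 0.33 and Col1a1 at −0.53 ± 0.27 (adjusted p = 0.214 and 0.291 in limma). Lum and Fap, the list genes under the level filter, went the other way, at 0.23 ± 0.47 and 0.62 ± 0.23. The part of fibroblasts in the lower values of Lox, Plod1 and Plod2 was not tested.

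Plod2 fell by 0.97 (SE 0.26, adjusted p = 0.0484), a call that was lost in 17 of the alternatives (up to 0.472 without mouse 72), among them any single tumour but KO tumour 2 left out. Its groups overlapped only through KO tumour 2 at 6.72 and WT tumour 1 at 6.69. Tfrc fell by 0.95 (SE 0.23, adjusted p = 0.0327), from 11.13 to 12.06 in WT to 10.19 to 11.20 in KO. It lost the call in 9 alternatives (0.0509 to 0.293 apart from the fit without mouse 72). Among them were each of WT tumours 1, 3 and 12 and KO tumour 6 left out. Cited2 rose by 0.75 (SE 0.19, 1.68-fold, adjusted p = 0.0386), with 9.74 to 10.19 in KO and 8.61 to 9.50 in WT and no overlap. It lost the call in 11 alternatives (0.0524 to 0.155 apart from the fit without mouse 72). Among them were each of KO tumours 2, 6, 9 and 11 and WT tumour 3 left out. The next genes by p were Stc2, at −1.59 ± 0.46 (adjusted p = 0.0671), the cytokine gene Mif, at 0.41 ± 0.15 (0.127), Vhl (0.293) and the heme oxygenase gene Hmox1, at 0.43 ± 0.23 (0.302).

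**Figure D4:**
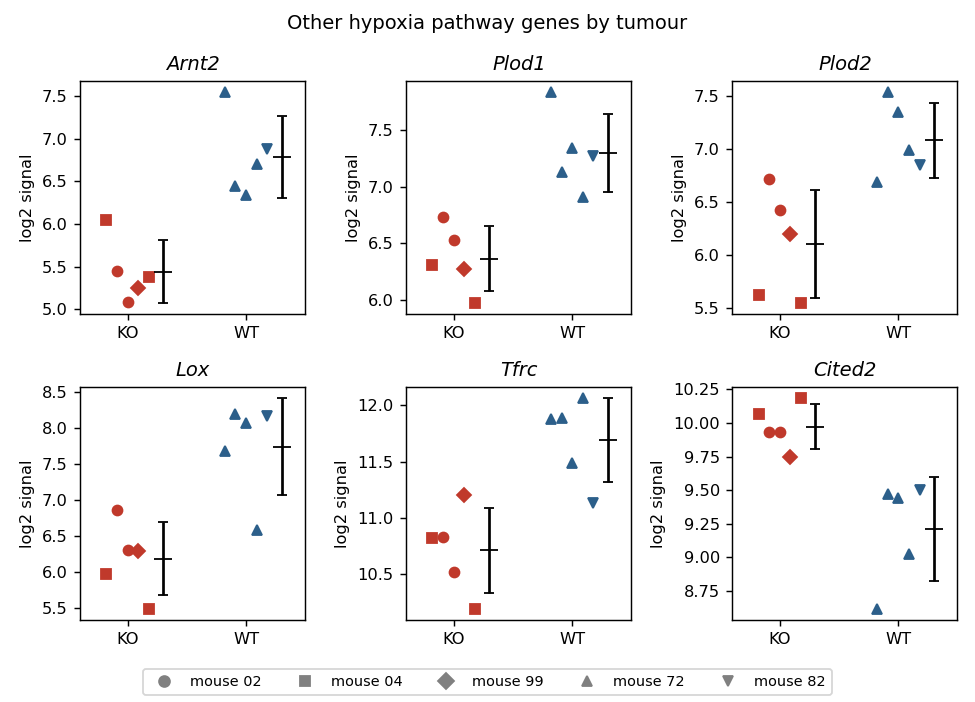
Log2 signal of the 6 further hypoxia genes past the threshold in each KO and WT tumour, with the symbol giving the mouse and a bar for the mean ± SD of 5 tumours. Arnt2, Plod1 and Cited2 do not overlap between the groups, and Lox overlaps only through WT tumour 3.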

How the data were processed

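Per the submitters' processing notes the authors made the values with RMA (version and build not given in the sources used here), and the deposited table holds log2 signals per probe set, used as they are. Per the labels, 30 ng of total RNA from 14 µm sections were amplified. Of 45101 probe sets, 64 were controls, 34945 had a single symbol, 932 several and 9160 none. Tested were 12250 of 18193 genes, those whose mean reached the 40th percentile of probe sets (log2 5.82). The KO and WT tumours were compared with limma 3.58.1 (R 4.3.3, statmod 1.5.0; mouse as a random block, consensus correlation 0.0586; Benjamini-Hochberg threshold 0.05), two-sided, and the fit was checked on simulated data. A fitted difference weights mice and can differ slightly from that of the means. The genes, the lists and the rule for naming were chosen with earlier results of these data known. By that rule all listed genes are named, with tumour values for the gene without overlap and the smallest p of each role group; Slc16a3, Hk2, Pfkfb3, Aldoc, Egln3 and Car9 were added after their values were seen. P-values measure the spread between tumours, which share mice. The number of arrays limits the precision. Alternatives changed the block, unit, number range, filter, probe sets, centring, prior, RNA quality, tumours and mice.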

Additional observations from a re-analysis of the deposited data

Results flagged for a closer look

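Gaps between a tumour and the rest of its group were tested for the 30 genes and the list means, 122 tests in all, of which chance flags about 1 in 20. There were 6. Tpi1 was at 12.15 in KO tumour 11 against 11.90 to 11.97 in the other KO tumours. Eno2 was at 7.103 in KO tumour 2 against 5.63 to 5.97, and at 5.987 in WT tumour 3 against 6.82 to 6.96 in the other WT tumours. The mean of the lymphocyte list was 6.172 in WT tumour 12 against 5.57 to 5.74. The mean of the endothelial list was 6.503 in WT tumour 3 against 7.40 to 7.65. The mean of the list of cycling genes was 8.96 in KO tumour 9 against 9.59 to 9.78. All values are log2 signals.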

How the results depend on the processing

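No paired analysis was possible because the KO tumours came from mice 02, 04 and 99 and the WT tumours from mice 72 and 82. Over 25 alternative settings, 11 of the 30 genes kept their sign and 19 reversed at least once. Among the 19, the main difference was at most 0.39 in size. Leaving out mouse 82 is the same fit as leaving out WT tumour 8, and mouse 99 the same as KO tumour 7. Each of these fits is counted under both names, here and in the numbers of alternatives that lost a call. In counts of calls, the main values are 868 genes, 0 of the 30, 0 further glycolysis genes and 6 further hypoxia genes. Mouse means gave 388 genes, 1 glycolysis gene (Slc16a1) and 2 hypoxia genes, with Pfkm at −0.037, Pkm 0.024, Egln3 −0.031, Adm −0.21 and Ndrg1 −0.12. The filter at the 60th percentile gave 577 genes and 2 hypoxia genes, and no filter 1 glycolysis gene, Pck1. The 3′ to 5′ covariate gave 548 genes and 1 of the 30, with Egln3 at −0.087. No block gave 1 of the 30. The mean of probe sets gave 1 of the 30, 1 glycolysis gene (Adpgk) and 3 hypoxia genes. The number range as a covariate gave 1 of the 30 and 3 hypoxia genes, with Slc2a1 at 0.15, Slc16a3 0.35, Hk1 0.12, Pfkl 0.10, Aldoa 0.021, Tpi1 0.036, Pkm 0.24, Ldha 0.14, Hif1a 0.20, Higd1a 0.12 and P4ha1 0.0053. Without mouse 02 there were 548 genes, 2 of the 30, 1 glycolysis and 3 hypoxia genes, with Slc16a3 at 0.37, Hk1 0.010, Pfkl 0.21, Tpi1 0.0023, Pkm 0.10 and Ldha 0.030. Without mouse 04 there were 467 genes and 1 hypoxia gene, with Egln3 at −0.40, Adm −0.15 and Ddit4 0.014. Without mouse 72 there were 288 genes and 1 hypoxia gene, with Pfkm at −0.26, Pgk1 −0.033, Egln3 −0.26, Adm −0.72, Ankrd37 −0.042 and Ndrg1 −0.55. Without mouse 99 there was 1 of the 30, with Adm at −0.0046. Leaving out each tumour gave 472 (KO tumour 6; 537 without WT tumour 1) to 921 genes, 0 to 1 of the 30, 0 to 1 glycolysis and 2 to 6 hypoxia genes; it gave Hk1 −0.28 to 0.11, Pfkl −0.27 to 0.0032, Pfkm −0.0042 to 0.22, Tpi1 −0.089 to 0.00039, Pkm −0.15 to 0.062, Ldha −0.16 to 0.0048, Egln3 −0.27 to 0.31, Adm −0.17 to 0.24, Car9 −0.027 to 0.63 and Ndrg1 −0.0059 to 0.46. The causes were not tested.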

Other observations

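The following genes of the wider glycolysis list lie outside the naming rule and were picked after their values were seen. Pck1, the cytosolic enzyme that starts gluconeogenesis, had a mean below the level filter, where background was not assessed. It was at 5.25 to 6.79 in KO and 3.35 to 5.13 in WT tumours, without overlap, at a difference of 1.71 log2 (limma without the level filter). Slc16a1, the monocarboxylate carrier MCT1, was at 10.12 ± 0.08 in KO and 9.28 ± 0.78 in WT tumours, a difference of 0.85 ± 0.33 (adjusted p = 0.163), and the low values were those of WT tumours 1 and 13. Fbp2, a fructose bisphosphatase gene, differed by 0.73 ± 0.31 (adjusted p = 0.188).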
